A study of Mus musculus with 8 samples.

Results

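Keratins are the intermediate filament proteins of epithelial cells, and the 7 described here, Krt7, Krt8, Krt18, Krt19, Krt20, Krt23 and Krt80, are those of simple, single-layered epithelia and their tumours. They were taken by gene symbol, with earlier results of these data known, and are 7 of 52636 gene IDs in the data. A keratin filament is built from pairs of 1 type I and 1 type II chain, so that a cell needs both. Krt8 (type II) and Krt18 (type I) are the basic pair of simple epithelia, and Krt19 (type I) and Krt20 (type I) are added to it in the gut, Krt20 mainly in mature surface cells. Leukocytes carry vimentin in place of keratins, so in a mixture of spleen and cancer cells these genes report mainly on the epithelial side.

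RNA was sequenced from 4 co-cultures of C57BL/6 mouse splenocytes with trogocytic colon cancer cells and from 4 with non-trogocytic cancer cells, the controls. Trogocytosis is the transfer of membrane pieces between cells. The cancer cells of both groups were organoid cells with a tdTomato reporter that had reached the liver after injection into the spleen. They were separated by sorting for tdTomato and for CD4, a helper T cell protein. Both kinds were kept for 5 days with splenocytes of Actin-GFP reporter mice, at 1 cancer cell to 50 splenocytes. The labels do not say whether replicates came from separate animals or cultures, so a p-value here reflects library-to-library spread alone, and that spread may be technical. RNA came from the whole mixture, so fewer cancer cells and less keratin RNA per cancer cell cannot be told apart from a level alone, whereas a ratio of 2 keratins in 1 library does not depend on the number of cancer cells if both come from these cells.

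Aligned bases came to 1.39 to 1.84 Gb a library, and over 11433 genes the pairwise correlation of libraries on the log2 scale was 0.853 to 0.912. Leukocyte transcripts were present throughout, with 8 of 8 markers above 0 in every library and a summed level of 499 to 1418 TPM (transcript abundance per length, scaled to 1 fixed total per library) in trogocytic and 432 to 2121 TPM in non-trogocytic co-cultures. Of 15 colon epithelium genes, 14 were above 0 in every library, and Cdx1, a homeobox gene of the intestine, was listed at 0 in all 8. Liver cells also make Krt8 and Krt18. All 8 hepatocyte markers, Alb among them, were listed at 0 in 7 libraries, and all 8 were above 0 in non-trogocytic replicate 3, with a summed level of 384 TPM. Bile duct cells make Krt7 and Krt19 too; of 6 bile duct markers the transcription factor gene Sox9, which intestinal crypt cells also express, stood at 102 to 271 TPM in trogocytic and 113 to 194 TPM in non-trogocytic co-cultures, and Ggt1 was at 0 in 7 libraries. Of 6 mesothelium markers, Wt1, Upk3b, Lrrn4 and Muc16 were at 0 in all 8, and Msln stood at 13.6 to 48.9 TPM in trogocytic and 21.6 to 53.2 TPM in non-trogocytic co-cultures. The remaining marker, Upk1b, was at 0 in all 4 trogocytic libraries, against 5.78 and 1.25 TPM in non-trogocytic replicates 1 and 2 and 0 in the other 2. The stroma and endothelium list was at low levels. In trogocytic libraries 0 to 3 of 9 genes were above 0, with a sum of 0 to 8.15 TPM. In non-trogocytic libraries 5 or 6 of 9 were above 0, with a sum of 2.43 to 38.6 TPM, and a group difference was not tested. The collagen genes Col1a1, Col1a2 and Col3a1 were at 0 in all 4 trogocytic libraries. In the 4 non-trogocytic libraries they were above 0, at 0.026 to 7.40 TPM, so that some values were traces. Of the 9 genes 1, Pecam1, was abundant enough to be tested. It stood at 0 to 8.15 TPM in trogocytic and 1.80 to 4.98 TPM in non-trogocytic libraries, so the groups overlapped. Among all 11433 tested genes, 1.3% had every trogocytic library below every non-trogocytic one. The collagen genes were too low to be among these, so that share is no background for them. The proteoglycan gene Dcn reached 22.1 TPM in non-trogocytic replicate 3. Kdr and Pdgfrb, of endothelium and of pericytes, were at 0 in all 8. The part of these other cells in the keratin levels was not tested. In non-trogocytic replicate 3, the library with hepatocyte transcripts, Krt8 had the lowest level of the 8 libraries. The ratios of Krt18 and of Krt7 to Krt8 were the highest there, at 5.84 and 0.21.

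Krt7, Krt8, Krt18 and Krt80 lie in the type II cluster on chromosome 15, where Krt18 is the only type I gene, and Krt19, Krt20 and Krt23 in the type I cluster on chromosome 11 (GRCm38, positions from the files). Krt8 (ENSMUSG00000049382.9) spans 101996711 to 102004342 and its neighbour Krt18 (ENSMUSG00000023043.6) 102028216 to 102032026, on opposite strands. Krt19 (ENSMUSG00000020911.14) spans 100140810 to 100148665, Krt23 (ENSMUSG00000006777.7) 99477974 to 99493137 and Krt20 (ENSMUSG00000035775.2) 99428403 to 99438150. Krt7 (ENSMUSG00000023039.16) spans 101411043 to 101430313 and Krt80 (ENSMUSG00000037185.8) 101349571 to 101370125. The promoter table of RefSeq (GRCm38.p6) held 5 of the 7 genes. Shown are the 250 bases before the start, 5′ to 3′ on the gene's own strand, of Krt18, the most abundant member, of Krt7, and of Krt20, which was listed at 0 in 4 libraries, with motif letters in capitals. The RefSeq start of Krt7 used here lies inside the span of the gene given above.
Krt18, chr15:102027966-102028215, plus strand: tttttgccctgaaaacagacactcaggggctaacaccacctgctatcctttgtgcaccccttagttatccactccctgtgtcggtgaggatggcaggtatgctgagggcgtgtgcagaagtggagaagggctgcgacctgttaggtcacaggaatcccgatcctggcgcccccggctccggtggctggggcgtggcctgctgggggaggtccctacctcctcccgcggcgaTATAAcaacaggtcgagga
Krt7, chr15:101412153-101412402, plus strand: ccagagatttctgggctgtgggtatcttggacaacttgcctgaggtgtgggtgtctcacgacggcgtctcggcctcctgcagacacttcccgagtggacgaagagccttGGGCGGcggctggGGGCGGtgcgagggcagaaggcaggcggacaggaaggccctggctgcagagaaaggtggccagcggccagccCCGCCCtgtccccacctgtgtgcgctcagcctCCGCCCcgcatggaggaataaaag
Krt20, chr11:99438154-99438403, minus strand: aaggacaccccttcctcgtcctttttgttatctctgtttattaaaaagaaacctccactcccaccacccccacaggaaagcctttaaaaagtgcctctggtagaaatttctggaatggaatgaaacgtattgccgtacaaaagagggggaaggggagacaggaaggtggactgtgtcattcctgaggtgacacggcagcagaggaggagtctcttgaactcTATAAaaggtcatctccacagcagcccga
The letters TATAA, searched on the gene's strand, began 19 bases before the start in Krt18 and 29 bases before it in Krt20, and 16.0% of the 32851 promoter windows held them. The GC box GGGCGG, searched on both strands and held by 32.7% of the windows, occurred 4 times in Krt7 (141, 128, 56 and 24 bases before the start) and not in the windows of Krt18 and Krt20. The AP-1 motif TGANTCA, on both strands, was in 6.75% of all windows and in none of the 5. A match describes letters only, and the most and the least abundant of the printed genes both carried TATAA.

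Krt18, the type I partner of Krt8, was the most abundant keratin in every library. It stood at 2931, 3750, 3130 and 3620 TPM in the 4 trogocytic co-cultures, against 1711, 4617, 2573 and 3451 TPM in the 4 non-trogocytic co-cultures. The trogocytic libraries sat close together, inside the wide range of the controls, whose replicates 1 and 2 were the lowest and the highest of all 8. The level averaged 3358 ± 390 TPM in trogocytic and 3088 ± 1243 TPM in non-trogocytic co-cultures (SD, n = 4 each). On the log2(TPM + 1) scale the difference, trogocytic minus non-trogocytic here and throughout, was 0.21 ± 0.26 (SE, 95% interval −0.37 to 0.78), and limma's test across all genes gave an adjusted p of 0.9998.

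Krt8, the type II chain of the pair, stood at 897, 879, 641 and 1242 TPM in trogocytic co-cultures, against 471, 1731, 441 and 812 TPM in non-trogocytic co-cultures. Again the controls spanned the whole range. The difference was 0.28 ± 0.39 (SE, 95% interval −0.59 to 1.14) on the log2 scale, with a limma adjusted p of 0.9998. Non-trogocytic replicate 2, the highest library, carried much of the control mean, and without it the difference was 0.69 with an unadjusted p of 0.0305 and an adjusted p of 0.9994. A pseudogene, Krt8-ps, stood at 0.711 to 7.45 TPM over the libraries, and how reads were divided between these similar sequences is uncertain.

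Krt19, the smallest keratin and a marker of ductal and intestinal epithelium, stood at 438, 416, 344 and 516 TPM in trogocytic co-cultures, against 329, 769, 278 and 425 TPM in non-trogocytic co-cultures. Its libraries fell in nearly the same order as those of Krt8, with control replicate 2 highest and control replicate 3 lowest. The difference was 0.03 ± 0.29 (SE, 95% interval −0.61 to 0.67; limma adjusted p = 0.9998). Krt7, a type II keratin of ducts and glands that normal intestine makes little of, stood at 100.005, 116, 93.2 and 157 TPM in trogocytic co-cultures, against 50.7, 276, 92.6 and 123 TPM in non-trogocytic co-cultures. Here too control replicates 1 and 2 lay at the 2 ends. The difference was 0.02 ± 0.43 (SE, 95% interval −0.93 to 0.98; limma adjusted p = 0.9998).

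Krt23, a type I keratin that is induced in the stressed liver of mice, was the only tested member with a lower mean log2 level in trogocytic co-cultures. It stood at 39.3, 67.5, 64.1 and 40.8 TPM there, against 46.9, 111, 51.1 and 151 TPM in non-trogocytic co-cultures. The 2 highest libraries were control replicates 4 and 2, and the other 2 controls lay among the trogocytic libraries. The difference was −0.63 ± 0.39 (SE, 95% interval −1.498 to 0.25; limma adjusted p = 0.9998), so it did not pass. Without control replicate 4 it was −0.32, and without control replicate 1 it was −0.88 with an unadjusted p of 0.0464 and an adjusted p of 0.7924.

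Krt20 and Krt80 were barely present. Krt20 was listed at 0 in trogocytic replicates 1 and 4 and stood at 9.06 and 4.96 TPM in replicates 2 and 3. In the controls it was listed at 0 in replicates 1 and 4 and stood at 5.01 and 5.80 TPM in replicates 2 and 3. Thus the same 2 replicate numbers were at 0 in both groups, while the mean read depth of the others corresponds to 31.7 to 65.2 read pairs. The limma difference of Krt20 was 0.14 ± 0.95 (SE, 95% interval −1.95 to 2.23; adjusted p = 0.9998). Krt80, a type II keratin of maturing epithelia, was at 1.97 TPM in trogocytic replicate 1, at 0.303 TPM in control replicate 2 and listed at 0 in the other 6 libraries; it did not reach the filter for testing. Of the 7 members 6 were tested and 0 were called by limma at an adjusted p below 0.05, against 0.0525% of all 11433 tested genes (0.0175% with a higher and 0.035% with a lower trogocytic level). Likewise 0 of the 6 had an unadjusted p below 0.05, against 4.59% of all. The groups overlapped for all 6, whereas 2.68% of all tested genes showed no overlap (1.37% with trogocytic libraries higher, 1.3% with them lower). The median difference was 0.08 over the 6 members and 0.01 over all tested genes. Without control replicate 3, the library with hepatocyte transcripts, the limma differences were 0.15 for Krt18, 0.03 for Krt8, −0.16 for Krt19, −0.07 for Krt7, −0.84 for Krt23 and 0.61 for Krt20, with 0 called.

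**Figure D1:**
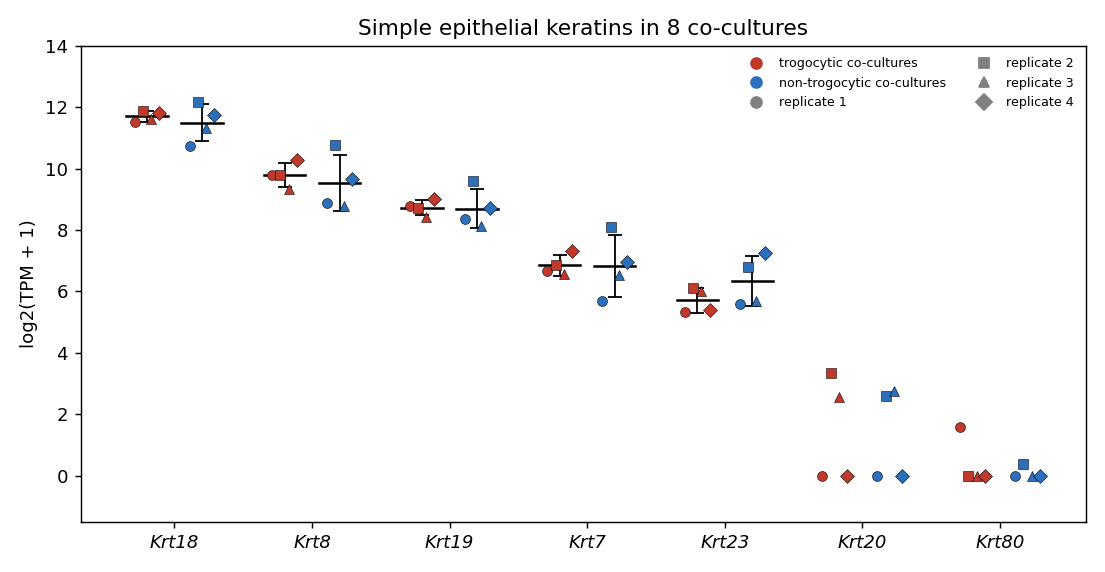
Level of each keratin in each library, as log2(TPM + 1) on the vertical axis, for 4 trogocytic (red) and 4 non-trogocytic (blue) co-cultures; symbols give the replicate, and black lines the mean and SD of the 5 keratins above 0 in every library. Krt18 is highest, Krt20 and Krt80 are lowest, and the controls spread more widely than the trogocytic libraries for Krt18, Krt8, Krt19, Krt7 and Krt23.

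The 5 abundant keratins kept a fixed order of TPM levels in nearly every library, although the place and share of Krt7 were lower by read depth than by TPM. Krt18 exceeded Krt8 in 8 of 8 libraries, by 2.67 to 5.84 times, Krt8 exceeded Krt19 in 8 of 8, by 1.43 to 2.40 times, and Krt19 exceeded Krt7 in 8 of 8, by 2.79 to 6.49 times. Krt7 exceeded Krt23 in 7 of 8, the exception being control replicate 4, and this is the only neighbouring pair whose order was not the same throughout. The summed TPM of the 7 genes was 4407, 5239, 4278 and 5575 in trogocytic co-cultures, against 2608, 7509, 3441 and 4962 in non-trogocytic co-cultures. That is 0.428% to 0.558% of all TPM in trogocytic and 0.261% to 0.751% in non-trogocytic libraries. Krt18 made up 64.9% to 73.2% of that sum in trogocytic and 61.5% to 74.8% in non-trogocytic co-cultures. Krt8 held 14.98% to 22.3% in trogocytic and 12.8% to 23.1% in non-trogocytic libraries. Krt19 held 7.95% to 9.94% in trogocytic and 8.07% to 12.6% in non-trogocytic libraries, and Krt7 2.18% to 2.81% in trogocytic and 1.94% to 3.67% in non-trogocytic libraries. The share of Krt23 was 0.731% to 1.498% in trogocytic and 1.48% to 3.04% in non-trogocytic libraries, so the groups overlapped only slightly.

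Although every filament pairs a type I with a type II chain, the transcripts were not balanced. The type I sum (Krt18, Krt19, Krt20 and Krt23) was 3.41, 4.26, 4.83 and 2.99 times the type II sum (Krt8, Krt7 and Krt80) in trogocytic co-cultures, against 3.999, 2.74, 5.45 and 4.31 times in non-trogocytic co-cultures. Type I was thus in excess at the RNA level in all 8 libraries, and the ranges of the groups overlapped.

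The ratio of each keratin to Krt8 within the library was compared next, since it takes out the share of cancer cells where both transcripts come from them. The 6 ratios were tested with a two-sided exact permutation test over the 70 splits into 4 and 4 libraries, whose smallest p is 0.0286, and 0 of 6 had a p below 0.05. Krt23 differed most. Its TPM was 4.38%, 7.67%, 9.997% and 3.28% of that of Krt8 in trogocytic co-cultures, against 9.97%, 6.4005%, 11.6% and 18.6% in non-trogocytic co-cultures. The log2 ratio averaged −4.09 ± 0.73 in trogocytic and −3.19 ± 0.63 in non-trogocytic co-cultures (SD, n = 4 each), a difference of −0.90 ± 0.48 (SE, exact permutation p = 0.1429, adjusted over the 6 ratios 0.5714). With Krt18 as the denominator the difference in Krt23 was −0.83 ± 0.31 (SE, exact permutation p = 0.0571, adjusted 0.3429), and over the alternatives tried the ratio of Krt23 to Krt8 stayed negative, with adjusted p-values of at least 0.2571.

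Krt19 stood at 48.8%, 47.4%, 53.7% and 41.6% of the TPM of Krt8 in trogocytic co-cultures, against 69.8%, 44.4%, 63.0% and 52.4% in non-trogocytic co-cultures. The difference of the log2 ratio was −0.25 ± 0.16 (SE, exact permutation p = 0.2, adjusted 0.5714). Krt7 stood at 11.2%, 13.2%, 14.5% and 12.6% of Krt8 in trogocytic co-cultures, against 10.8%, 15.9%, 21.003% and 15.1% in non-trogocytic co-cultures. Its ratio differed by −0.25 ± 0.21 (SE, exact permutation p = 0.2857, adjusted 0.5714). The highest Krt7 ratio was that of control replicate 3, and without it the difference was −0.10. Without control replicate 1, the lowest, it was −0.42 and the groups did not overlap (exact permutation p = 0.0571, the smallest that 3 against 4 libraries allow, adjusted 0.3429).

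The ratio of Krt18 to Krt8, the partners of the basic pair, was 3.27, 4.27, 4.88 and 2.92 in trogocytic co-cultures, against 3.63, 2.67, 5.84 and 4.25 in non-trogocytic co-cultures. The trogocytic libraries lay within the wider range of the controls, and the log2 ratio differed by −0.07 ± 0.29 (SE, exact permutation p = 0.8286, adjusted 0.9714). The 2 rare members gave differences of −0.14 ± 1.27 for Krt20 and 0.02 ± 0.57 for Krt80 (SE, exact permutation p = 0.9429 and 0.9714, adjusted 0.9714 for each), but with the keratin listed at 0 such a ratio follows the level of Krt8 alone. A limma fit across all genes of the ratio to Krt8 gave 95% intervals of −1.998 to 0.20 for Krt23, −1.24 to 0.75 for Krt19, −1.24 to 0.73 for Krt7 and −1.31 to 1.18 for Krt18. Without control replicate 3 the differences from the permutation test were −0.87 for Krt23, −0.19 for Krt19, −0.10 for Krt7, 0.12 for Krt18, 0.58 for Krt20 and 0.24 for Krt80. The limma intervals hold changes of 1 on the log2 scale in each of the 4 ratios, so equal ratios were not shown.

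**Figure D2:**
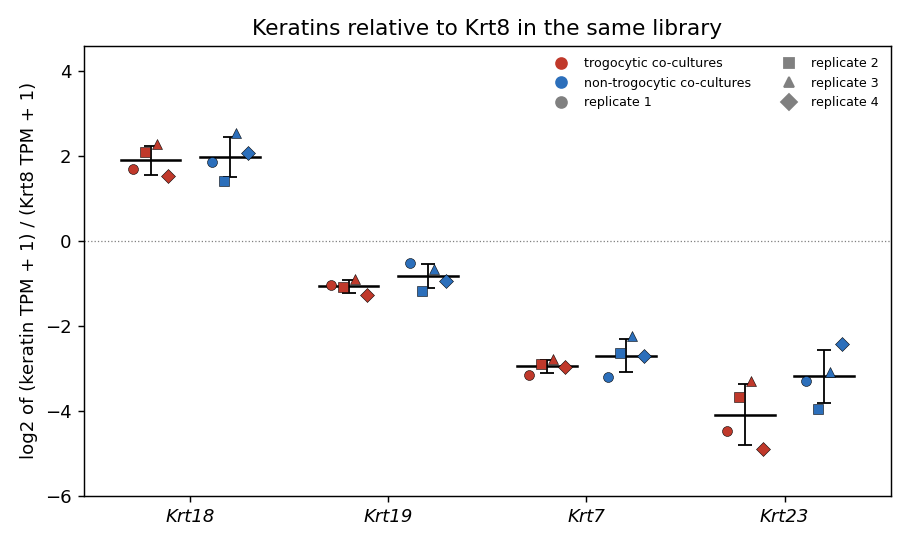
Log2 ratio of 4 keratins to Krt8 in the same library (vertical axis; the dotted line at 0 marks equal TPM) in trogocytic (red) and non-trogocytic (blue) co-cultures, with mean and SD, n = 4. The ratios of Krt19 and Krt7 sit close together in the trogocytic libraries, and Krt23 has a mean of −4.09 in trogocytic and −3.19 in non-trogocytic co-cultures with overlapping points.

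Among the keratins, Krt8 and Krt19 moved together most closely from library to library. The SD of the log2 level over the 8 libraries was 0.67 for Krt8 and 0.45 for Krt19, but that of their log2 ratio only 0.25. The ratio of Krt7 to Krt8 had an SD of 0.31, that of Krt18 to Krt19 0.31, that of Krt7 to Krt18 0.33 and that of Krt8 to Krt18 0.38. Krt23 stood apart, with SDs of 0.60 to 0.79 for its ratios to the other 4. Set against Epcam, an epithelial adhesion molecule with an SD of 0.28, the ratio of Krt18 had an SD of 0.33. Those of Krt8 and Krt7 had SDs of 0.65 and 0.60, about as large as those of the levels themselves. The ratio of Krt23 to Epcam had an SD of 0.50, against 0.69 for its level, and that of Krt19 0.48. Pearson's r with Epcam was 0.79 for Krt23, 0.65 for Krt18, 0.50 for Krt7, 0.27 for Krt8 and 0.20 for Krt19. All these values are descriptions, and the genes of 1 library share its sequencing depth and its scaling to a fixed sum.

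Krt18 tended to be low where the leukocyte transcript Ptprc was high. Ptprc (CD45, the membrane phosphatase common to leukocytes) was measured at 253, 98.4, 146 and 158 TPM in trogocytic co-cultures, against 345, 60.1, 149 and 55.8 TPM in non-trogocytic co-cultures. The library with the most Ptprc, control replicate 1, had the least Krt18, and the 2 with the least Ptprc, control replicates 2 and 4, were among the 4 with the most. The sum of the 8 leukocyte markers was also highest in control replicate 1, at 2121 TPM, but did not follow Krt18 throughout. It was 1203 TPM in trogocytic replicate 4 and 499 TPM in trogocytic replicate 3, where Krt18 stood at 3620 and 3130 TPM. Epcam stood at 319, 356, 389 and 327 TPM in trogocytic co-cultures, against 249, 378, 358 and 496 TPM in non-trogocytic co-cultures. With Ptprc as a covariate in the fit, the limma difference of Krt18 was 0.39 ± 0.13 (SE, unadjusted p = 0.0139), with an adjusted p of 0.5756 over all genes, the lowest adjusted p of Krt18 over 18 alternatives. In the same fit the difference was −0.36 for Krt23, against −0.63 without the covariate, and 0.28 for Krt7, against 0.02 without it; for Krt8 it was 0.47, for Krt19 0.15 and for Krt20 0.43, and the adjusted p-values of these 5 were at least 0.864. Over the 8 libraries the log2 levels of Ptprc and Krt23 had a Pearson r of −0.88, those of Ptprc and Krt18 one of −0.80. The part of the leukocyte share in the spread of the controls was not tested.

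**Figure D3:**
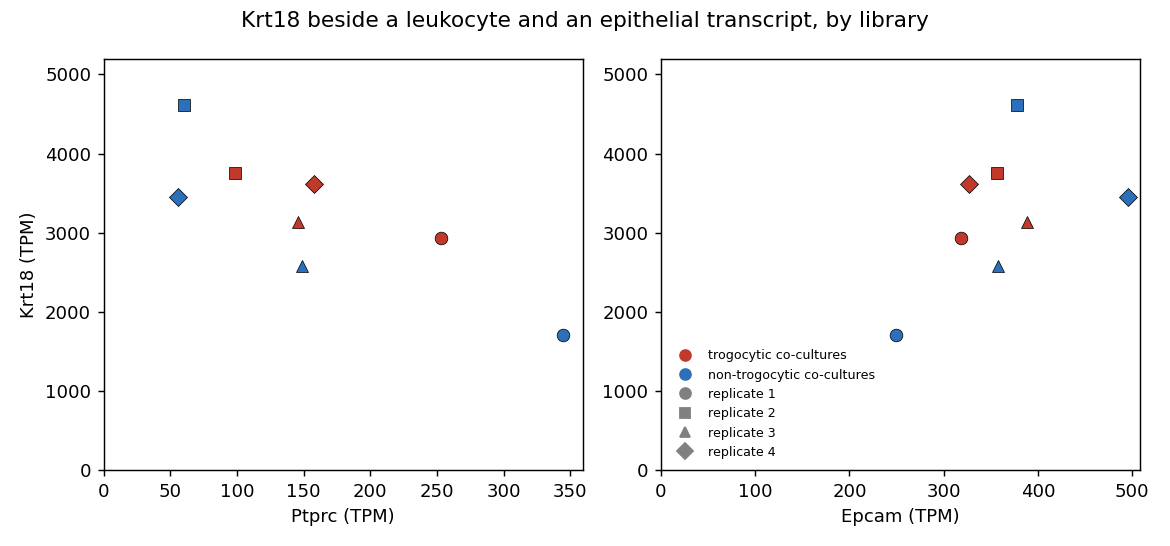
Krt18 (vertical axis, TPM) against Ptprc of leukocytes (left) and Epcam of epithelium (right), 1 point per library, trogocytic in red and non-trogocytic in blue, symbols by replicate. Control replicate 1, with 345 TPM of Ptprc, has the lowest Krt18, and control replicate 2, with 60.1 TPM, the highest.

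The unit decides the place of Krt7. The deposited tables give, beside TPM, a mean read depth of each gene. Rescaled by the depth of 1 FPKM in the library, that depth gave the TPM back for Krt8, Krt18, Krt20, Krt23 and Krt80, a level 1.18 times lower than the TPM for Krt19, and one 4.50 to 4.63 times lower for Krt7. The depth of 1 FPKM was set from genes with 1 transcript, Krt20 and Krt23 among them, so their agreement was fixed in advance. Krt8 and Krt18 also have 1 annotated transcript, and their agreement is no check of the scale either. Krt7 has 5 annotated transcripts with 7049 exonic bases in all (GENCODE M21, whose version of the gene is 1 later than that of the files), against 1 transcript of 1565 bases for Krt23. Krt80 has 5 transcripts and 6393 exonic bases too, and its TPM was given back by the depth in the 2 libraries where it was above 0. By read depth Krt7 stood at 22.2, 25.8, 20.7 and 34.8 in trogocytic and at 11.2, 59.5, 20.6 and 27.1 in non-trogocytic co-cultures, in units of TPM. On that scale Krt7 was below Krt23 in 8 of 8 libraries, where by TPM it was above it in 7. Krt19 exceeded Krt7 by 10.96 to 24.7 times by read depth, and Krt7 made up 0.498% to 0.648% of the summed keratins in trogocytic and 0.447% to 0.8293% in non-trogocytic libraries. The factor hardly varied between libraries, and by read depth the log2 ratio of Krt7 to Krt8 differed between the groups by −0.25 ± 0.20 (SE, exact permutation p = 0.2286), close to the value by TPM. Which transcripts of Krt7 carried the reads was not tested.

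**Figure D4:**
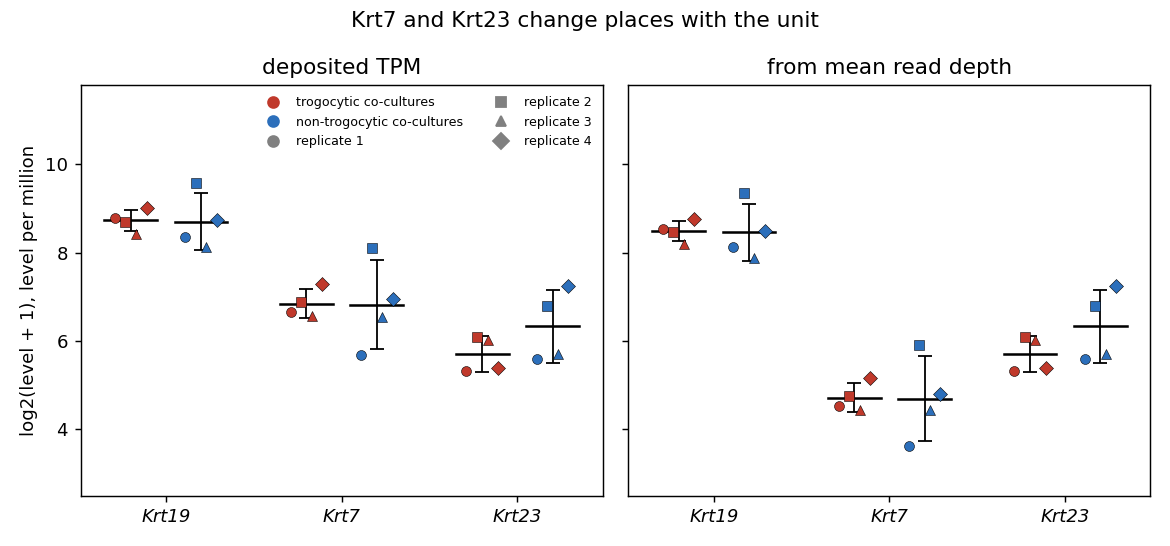
Levels of Krt19, Krt7 and Krt23 as deposited TPM (left) and from the mean read depth rescaled to the same unit (right), as log2(level + 1), with mean and SD of 4 trogocytic (red) and 4 non-trogocytic (blue) co-cultures. Krt7 lies above Krt23 by TPM in 7 libraries and below it by read depth in all 8.

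Keratins of other epithelia were largely absent, with exceptions. The files held 47 further keratin genes, of which 28 were listed at 0 in every library and 16 exceeded 1 TPM in at least 1. Only 5 were above 0 in every library, 4 of them with a mean of at least 10 TPM. The other was Krt90, at 1.20 to 24.2 TPM. Krt4, a type II keratin of the oesophagus and other stratified linings, stood at 30.2, 35.9, 45.1 and 120.5 TPM in trogocytic co-cultures, against 18.4, 173, 22.6 and 58.2 TPM in non-trogocytic co-cultures. Its usual partner Krt13 was listed at 0 in 3 trogocytic libraries and at 3.24 TPM in replicate 4, against 8.40, 2.44, 3.86 and 2.21 TPM in the controls. Like Krt8 and Krt7, Krt4 was highest in control replicate 2.

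Krt14, a type I keratin of basal layers whose partner Krt5 was at 0 in all 8 libraries, stood at 43.0, 37.4, 36.2 and 74.1 TPM in trogocytic co-cultures, against 11.6, 47.5, 18.8 and 16.6 TPM in non-trogocytic co-cultures. Control replicate 2 alone lay among the trogocytic libraries. The difference was 1.12 ± 0.43 (SE, limma unadjusted p = 0.0257, adjusted p = 0.9998). Krt10, of the upper layers of skin, stood at 24.9 to 37.6 TPM in trogocytic and 16.3 to 35.0 TPM in non-trogocytic co-cultures. Krt27, a keratin of the hair follicle, stood at 38.0, 69.1, 81.9 and 48.4 TPM in trogocytic co-cultures, against 90.8, 39.8, 34.5 and 9.48 TPM in non-trogocytic co-cultures. Unlike the simple epithelial keratins it was highest in control replicate 1, the library with the most Ptprc, and lowest in control replicate 4, the one with the least. Of the 47 genes 7 were tested, 0 were called, against 0.0525% of all tested genes, and 3 had an unadjusted p below 0.05, against 4.59% of all. These were Krt14, Krt13 (−1.72 ± 0.59, SE, adjusted p = 0.9498) and a hair keratin, Krt39, with 2.31, 4.18, 10.8 and 14.6 TPM in trogocytic co-cultures, against 0, 3.56, 2.59 and 1.92 TPM in non-trogocytic co-cultures (limma difference 1.51 ± 0.66, SE, adjusted p = 0.9998). Krt13 passed the filter of 1 TPM in 4 libraries only through the controls, where it was higher, so its place in this count is no support for a difference. The median difference of the 7 was 0.27 and that of all tested genes 0.01; Krt39 was named after its values were seen.

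**Figure D5:**
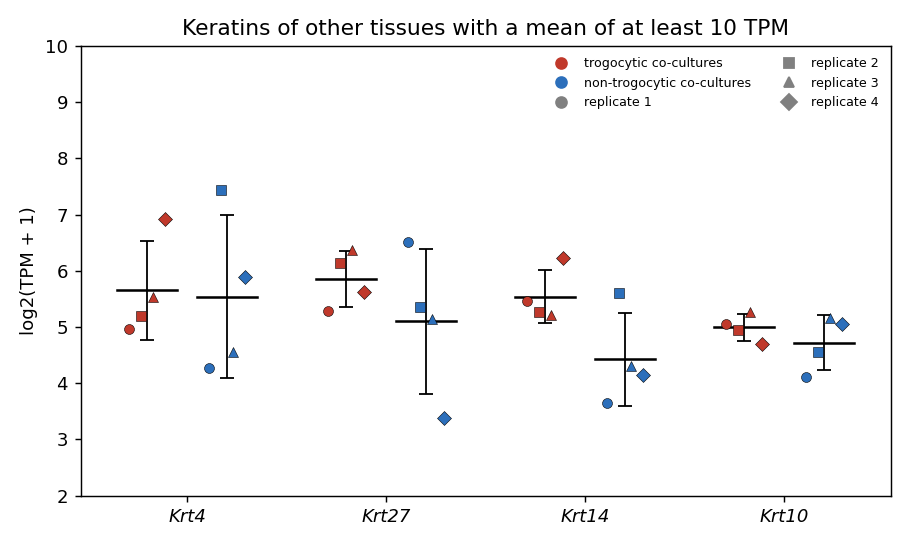
Levels, as log2(TPM + 1), of the 4 other keratins averaging 10 TPM or more, in trogocytic (red) and non-trogocytic (blue) co-cultures, with mean and SD, n = 4. Krt4 peaks in control replicate 2, whereas Krt27 peaks in control replicate 1.

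Transcripts of desmosomes and of proteins that bind keratins were examined beside the keratins themselves. Of 16 such genes 12 were tested, and 0 were called by limma, against 0.0525% of all tested genes. An unadjusted p below 0.05 was found for 0 of the 12, against 4.59% of all, so both counts are near the background. Their differences ran from −0.72 to 0.65, with a median of 0.18. The most abundant was Sfn, which encodes the 14-3-3 sigma protein that binds Krt17, at 126, 146, 62.0 and 192 TPM in trogocytic co-cultures, against 75.3, 370.4, 50.2 and 132 TPM in non-trogocytic co-cultures. Perp, a desmosomal membrane protein, stood at 87.5 ± 4.07 TPM in trogocytic and 87.9 ± 40.1 TPM in non-trogocytic co-cultures (SD, n = 4 each). The plakin Ppl stood at 1.49 ± 0.785 TPM in trogocytic and 3.46 ± 2.60 TPM in non-trogocytic co-cultures. The desmosomal cadherin Dsc2 stood at 8.27 ± 4.90 TPM in trogocytic and 11.7 ± 5.36 TPM in non-trogocytic co-cultures. Of the colon epithelium list 14 of 15 were tested and 0 called, against 0.0525% of all tested genes, with a median difference of −0.13. There Lgals4 and Tspan8, 2 abundant surface and secreted proteins of the gut, differed by 0.22 ± 0.30 and 0.06 ± 0.25 (SE), and Elf3, an epithelial transcription factor, and Vil1, the microvillus protein villin, by −1.15 ± 0.58 and −0.74 ± 0.45.

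Of 15 other intermediate filament genes 5 were tested and 0 were called by limma, against 0.0525% of all tested genes. An unadjusted p below 0.05 was found for 1 of the 5, against 4.59% of all. Lmna, which encodes lamins A and C of the nuclear envelope, stood at 444, 454, 456 and 339 TPM in trogocytic co-cultures, against 293, 288, 281 and 314 TPM in non-trogocytic co-cultures. The groups did not overlap, which was so for 1 of the 5 and for 2.68% of all tested genes. The difference was 0.52 ± 0.16 (SE, limma unadjusted p = 0.0075), and with an adjusted p of 0.9388 it did not pass. Vim, the vimentin of leukocytes and mesenchymal cells, stood at 31.4, 18.4, 13.9 and 30.3 TPM in trogocytic co-cultures, against 72.1, 27.8, 36.5 and 11.2 TPM in non-trogocytic co-cultures, and was highest in control replicate 1, like Ptprc.

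The genes whose log2 levels were most like those of each keratin over the 8 libraries were sought among 4165 genes with a mean of at least 20 TPM, by Pearson's r, as a description without a test. For Krt18 they were Anxa2 (r = 0.994), which encodes a membrane-binding annexin, Tk1 (0.985), a thymidine kinase, and Ruvbl2 (0.979). For Krt19 they were the translation factor gene Eif4a1 (0.984), the keratin-binding Sfn (0.978) and Cndp2 (0.975). For Krt8 they were Drg2 (0.977), Ndufv1 (0.964) and Abcf2 (0.964), and for Krt7 Babam1 (0.974), Phlda1 (0.974) and the glycolytic enolase Eno1 (0.969). Anxa2 was as abundant as Krt18, at 2357 to 4804 TPM. Krt23 was less closely matched, by Hspa9 (0.933), Cbx5 (0.929) and Ngly1 (0.926), and Krt20 by Cyfip1 (0.899), Mif (0.881) and Hist1h2ao (0.878). Each r is among the 3 highest of 4165, and the points share the leukocyte share and the depth of their library.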

How the data were processed

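Polyadenylated RNA of 8 co-cultures, 4 trogocytic and 4 non-trogocytic, was sequenced in paired reads. Per the submitters' processing notes the tools were StringTie 1.3.3, HISAT2 and DESeq version 2, with builds mm10 and GRCm38; strand setting and annotation release: not given in the sources used. The deposited tables hold, per the file headers, coverage (mean read depth), FPKM and TPM of each gene in 1 library. Depth came from coverage over FPKM of genes with 1 transcript, and read pairs behind a gene (6.93 M to 9.21 M in all) assume 200 aligned bases a pair.

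TPM was summed per gene ID. Genes at 1 TPM or more in at least 4 libraries were tested on log2(TPM + 1), which understates changes of low genes, using limma 3.58.1 in R 4.3.3 (trended variance, two-sided, Benjamini-Hochberg over 11433 genes, called at an adjusted p below 0.05). TPM are not counts, so no count model was used. Ratios to Krt8, with a pseudocount of 1, had an exact permutation test adjusted over 6 ratios. Both tests were tested on simulated data. The members and lists were chosen with earlier results of these data known. Named are the members, cell markers and the 3 genes most like each member. From each list the 2 tested genes of highest mean and the 2 of smallest p were chosen. Other keratins above 1 TPM were chosen too, and a part of both sets is printed. Alternatives changed the pseudocount, unit, filter, scaling, variance trend, covariate, denominator, replicate block and libraries.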

Additional observations from a re-analysis of the deposited data

Results flagged for a closer look

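Among 44 groups of 4 values examined for a library far from the other 3, 6 stood out. Chance gives about 1 in 20 where values follow a normal distribution, which values of 0 do not. For Krt80 in both groups and Alb in the controls the other 3 libraries were at 0, so the flag was certain. Alb in the trogocytic group, at 0 throughout, could not be flagged. Krt80 was at 1.97 TPM in trogocytic replicate 1 with the other 3 trogocytic libraries at 0, and at 0.303 TPM in non-trogocytic replicate 2 with the other 3 at 0. Krt4 was at 120.5 TPM in trogocytic replicate 4, against at most 45.1 TPM in the other trogocytic libraries. Msln, a surface protein of mesothelium and of some carcinomas, was at 48.9 TPM in the same trogocytic replicate 4 and at 53.2 TPM in non-trogocytic replicate 2, the libraries with the highest Krt8 of their groups. Alb, the albumin of hepatocytes, was at 36.5 TPM in non-trogocytic replicate 3 and at 0 in the other 7 libraries.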

How the results depend on the processing

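No keratin and no ratio was called in any alternative run; Krt80 could be tested with no filter alone, and Krt20 not at a filter of 5 TPM. Of 107 alternative values of the limma differences 92 kept their direction and 15 turned it, and of 82 of the ratios 71 kept it and 11 turned it, all of them from differences within their standard error. Leaving out 1 library at a time gave limma differences of −0.36 to 0.45 for Krt7, 0.03 to 0.69 for Krt8, −0.0457 to 0.43 for Krt18, −0.16 to 0.33 for Krt19, −0.48 to 0.63 for Krt20 and −0.88 to −0.32 for Krt23. For the ratios to Krt8 it gave −0.26 to 0.12 for Krt18, −0.76 to 0.58 for Krt20 and −0.37 to 0.31 for Krt80, while those of Krt7, Krt19 and Krt23 stayed below 0. With FPKM the differences were −0.0314 for Krt7 and −0.0229 for Krt19, and without replicate 1 of both groups they were −0.29 for Krt7 and −0.10 for Krt19. Without these libraries the ratio of Krt20 differed by 0.13 and that of Krt80 by −0.19. The number of genes called over the whole table, 6, was 1 with no filter, 1 without the trend, 0 without replicate 1 of both groups and 0 to 3 with any 1 of the 8 libraries left out, where fewer samples are fitted. With the replicate number as a block 0 genes were called (654 at an unadjusted p below 0.05); same-numbered libraries did not deviate together in every pair (correlations of 0.24, 0.01, 0.06 and −0.09), so a pairing by number was not shown. The read depth scale was an alternative chosen after seeing the data. Krt20 and Krt80 rest on at most 65.2 read pairs in any library. Krt20 was listed at 0 in control replicate 1, the library with the most aligned bases (1.84 Gb), and the part of depth in its values was not tested.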
